A study of Equus caballus with 18 samples.

Results

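A list of 10 genes of cartilage and its cells was followed in equine joint fluid: ACAN, HAPLN1, COMP, MATN3, CILP, PRELP, FMOD, EPYC, CHAD and SOX9. They are a fixed list of names, matched to an Affymetrix equine gene array by symbol. All 10 of the 10 genes had a probe set (a group of probes for 1 transcript) with exactly 1 gene symbol, and each had only 1 such probe set, out of 16661 genes named in this way and 30559 probe sets in all. The fluid came from the right carpal joint of 6 exercised adult Thoroughbreds, from a herd aged 4 to 8 years, which were all given the corticosteroid isoflupredone acetate, at a dose of 8 mg, in that joint. The 3 groups are the same horses at baseline (before the drug), at 24 h and at day 7. They are called horses 1 to 6 here, and the labels name no genotype or strain beyond the breed. Total RNA was taken from 200 µl of whole fluid, so each array reads a mixture of whatever cells the fluid held. Joints given saline were not analysed here, and a change with time cannot be told apart from effects of the puncture, of repeated sampling or, by day 7, of the return to exercise.

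Cartilage is a matrix with few cells. Its collagen fibrils hold a gel of aggrecan, a proteoglycan whose sulphated chains bind water, which is fixed to hyaluronan by link protein. Smaller proteins such as COMP, the matrilins and the leucine-rich repeat proteoglycans tie fibrils and gel together, and SOX9 is the transcription factor that drives this programme in chondrocytes, the cells of cartilage. Chondrocytes sit inside the tissue and are not normally found free in joint fluid, whereas several of these matrix genes are also active in the fibroblasts of the synovial lining and in tendon.

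The deposited values are log2 expression values, so a difference of 1 is a 2-fold change, and their precision is limited by the number of arrays. Horses 1 and 2 had the same deposited day 7 value at 99.3% of probe sets, against 2.05% for the next closest pair of columns, and at all 10 genes. They were averaged and counted as 1 array, set against the mean of both horses in counts of arrays that were lower or higher. This leaves 17 arrays, of which 6 are baseline, 6 are 24 h and 5 are day 7 arrays. Array medians ran from 3.91 to 4.01 at baseline, 3.78 to 4.04 at 24 h and 3.64 to 3.99 at day 7. The SD of the values within an array, a measure of how spread they are, was 1.37 ± 0.0931 at baseline, 1.56 ± 0.12 at 24 h and 1.7 ± 0.119 at day 7 (SD over n = 6, 6 and 5 arrays). Changes were estimated within horses with limma, a linear model fitted to all probe sets, and a gene is said to be called, or to have risen or fallen, where its Benjamini-Hochberg adjusted p over all 30559 probe sets was under 0.05.

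Before the injection, the 10 genes lay around the middle of the array. In mean level relative to the array median, on the log2 scale, 5 of 10 were above it at baseline, 6 at 24 h and 3 at day 7. Over all 17 arrays COMP, CHAD and PRELP were above the array median every time, HAPLN1 was below it every time, and the other 6 genes lay on either side. Probe sets differ in how well they bind their target, so these positions describe each gene against its own array and do not rank the genes. As a scale for dim probe sets, 16 genes of retina, pancreas, testis, liver and brain had mean levels from -0.80 to 1.52 relative to the array median at baseline, with a median of -0.04. The 10 cartilage genes covered nearly the same range there, from -0.84 to 1.23, with a median of 0.02. At day 7 the 2 ranges were -1.24 to 1.11 and -1.10 to 0.99. By comparison, 13 of 13 macrophage markers and 12 of 13 T cell markers lay above the array median at day 7, as did 8 of 14 markers of synovial fibroblasts and 2 of 8 of neutrophils.

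**Figure D1:**
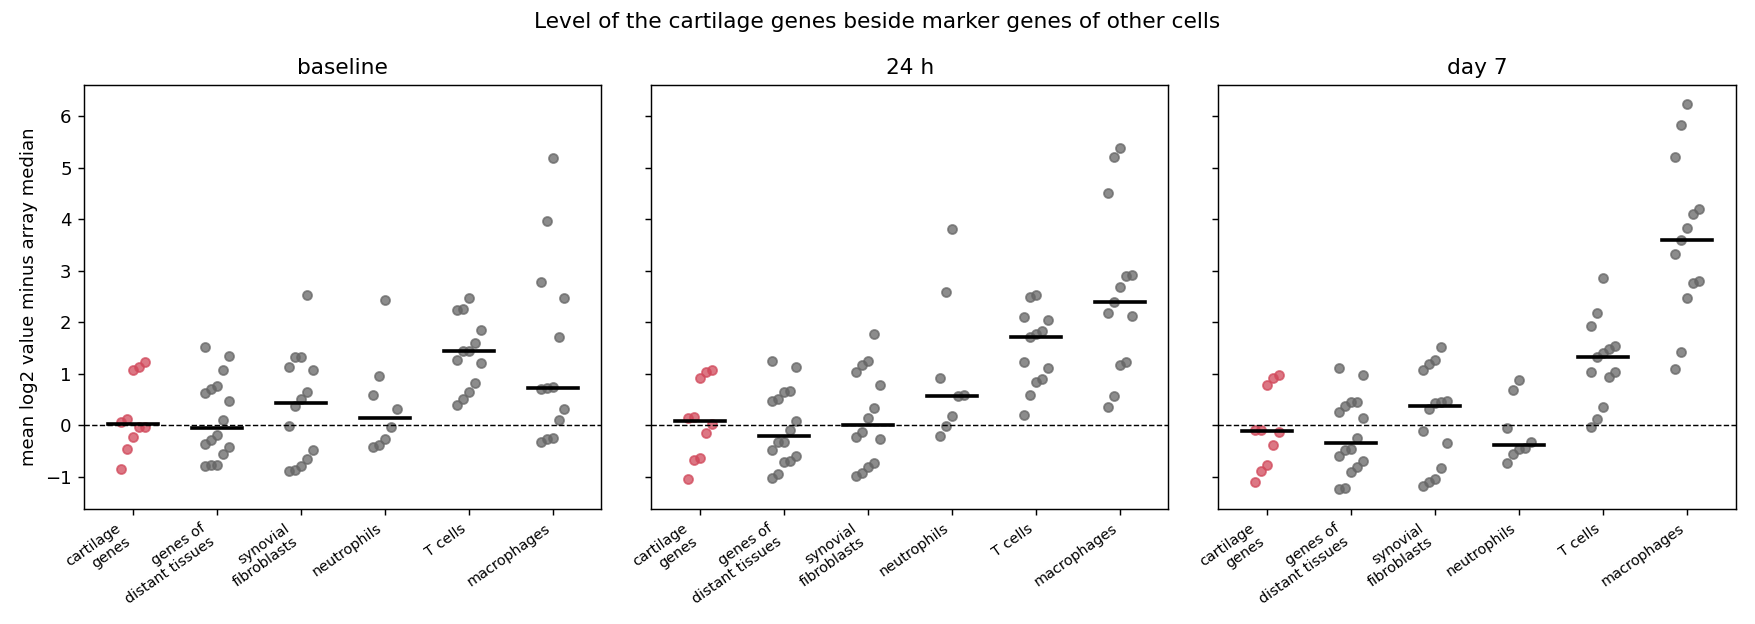
Mean log2 value minus the array median for the 10 cartilage genes (red) and for marker genes of other cells (grey), 1 point per gene, at baseline, 24 h and day 7; black bars are medians over genes and the dashed line is the array median. The ranges of the cartilage genes and of the genes of distant tissues overlap at each time, while the macrophage markers have their median at 0.73 at baseline and 3.59 at day 7.

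The label of chondrocyte genes was checked against 12 measured chondrocyte markers, 7 of which are among the 10 genes themselves. COL2A1, which encodes the main collagen of cartilage and is the defining product of a chondrocyte, had a mean of 4.55 ± 0.42 (SD, n = 6) at baseline, which is 0.59 above the array median. That level is inside the range of the genes of distant tissues. The chondrocyte markers had a mean level per array between 0.02 and 0.40 above the array median at baseline, against -0.03 to 0.32 for the genes of distant tissues. On single arrays COMP and PRELP reached 2.44 and 2.53 above the array median, both in horse 1 at baseline. Since levels of different probe sets cannot be set against each other as amounts, these values do not settle whether the fluid held chondrocytes, and the 10 are treated as a list of cartilage genes.

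Aggrecan and its link protein did not change detectably. ACAN, the gene of aggrecan itself, had values from 3.62 to 4.62 (median 4.02) at baseline and from 3.56 to 4.24 (median 3.96) at 24 h. At day 7 it read 3.97 on the shared array of horses 1 and 2, then 3.60, 3.33, 3.38 and 4.16 in horses 3 to 6. The 3 times overlapped throughout, and at each of them some arrays were above and some below their array median. Its log2 change was -0.08 ± 0.21 (SE, adjusted p = 0.865) at 24 h and -0.34 ± 0.22 (adjusted p = 0.255) at day 7, with a 95% interval from -0.82 to 0.14 for the latter. HAPLN1, which encodes the link protein, read 2.79 to 3.73 (median 3.04) at baseline and 2.36 to 3.39 (median 2.84) at 24 h. On the day 7 arrays HAPLN1 was at 3.20, 2.83, 2.29, 2.44 and 2.78, again overlapping with baseline. It stood 0.84 ± 0.36 (SD, n = 6) below the array median at baseline and 1.10 ± 0.22 (SD, n = 5) below it at day 7. Its rank among all probe sets of an array hardly differed, with a mean percentile of 23.1 at baseline and 22.8 at day 7. The change of HAPLN1 was -0.25 ± 0.24 (adjusted p = 0.597) and -0.37 ± 0.26 (adjusted p = 0.27) at the 2 times.

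COMP, which encodes a pentameric glycoprotein that binds collagen and is also made by synovial cells and tendon, varied most between horses at baseline. At baseline it read 6.37 in horse 1, 5.64 in horse 2, 5.50 in horse 3, 4.20 in horse 4, 4.71 in horse 5 and 4.72 in horse 6. The same horses had 5.03, 4.45, 5.16, 5.0, 4.72 and 4.62 at 24 h. The horses lay closer together by then, with an SD of 0.275 against 0.79 before the injection, and the 3 horses that began highest had come down while horse 4 had gone up. At day 7 COMP was at 5.35 on the shared array and at 4.44, 4.12, 4.35 and 4.68 in horses 3 to 6. It was lower than baseline in 5 of 5 arrays, but its change of -0.52 ± 0.28 (SE, adjusted p = 0.17, 95% interval -1.12 to 0.09) did not pass, and neither did the change of -0.36 ± 0.27 (adjusted p = 0.475) at 24 h. Relative to the array median its mean went from 1.23 ± 0.79 at baseline to 0.91 ± 0.20 at 24 h (SD, n = 6 each) and 0.78 ± 0.34 (SD, n = 5) at day 7.

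MATN3 encodes matrilin 3, an adaptor protein of growing and adult cartilage. Its baseline values were close together, from 3.56 to 3.82 in 5 horses and 4.12 in horse 3. At 24 h they ran from 3.58 to 4.96 (median 3.93), with horses 3 and 5 at 4.96 and 4.49 and the other horses at or below 3.94. It was the gene with the largest upward estimate at that time, 0.34 ± 0.23 (log2 change, SE, adjusted p = 0.433), although higher in only 4 of 6 horses. By day 7 its values were 3.84, 3.68, 3.64, 3.34 and 4.06, and the change from baseline was -0.05 ± 0.24 (adjusted p = 0.889). CILP, an intermediate layer protein of cartilage that is known to bind growth factors, read 3.23 to 4.45 (median 4.06) at baseline and 3.65 to 4.46 (median 3.99) at 24 h. On the day 7 arrays it was at 4.13, 3.39, 3.31, 3.67 and 4.09. Its change was 0.13 ± 0.20 (adjusted p = 0.755) at 24 h and -0.19 ± 0.21 (adjusted p = 0.498) at day 7, and at each time some horses were above and some below their array median.

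The other 4 matrix genes encode leucine-rich repeat proteins. PRELP, which links collagen to basement membranes and is made in several connective tissues, had its highest value of the study in horse 1 at baseline, 6.46. The other horses began at 5.22, 4.95, 4.50, 4.38 and 4.67. At 24 h PRELP was at 5.54, 4.62, 5.95, 4.47, 4.39 and 4.95 in horses 1 to 6, and at day 7 at 5.16 on the shared array and 4.84, 4.63, 4.35 and 4.99 in the rest. Horses 4 and 5 hardly moved over the 3 times, and horse 3 was highest at 24 h. The change was -0.04 ± 0.24 (log2, SE, adjusted p = 0.941) at 24 h and -0.15 ± 0.25 (adjusted p = 0.656) at day 7. PRELP stayed 1.07 ± 0.78, 1.07 ± 0.56 and 0.99 ± 0.19 above the array median at the 3 times (SD, n = 6, 6 and 5).

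FMOD, which encodes fibromodulin, a regulator of collagen fibril growth, read 2.89 to 4.36 (median 3.42) at baseline and 3.02 to 3.56 (median 3.27) at 24 h. Day 7 values were 3.22 on the shared array and 2.80, 2.70, 2.55 and 3.36 in horses 3 to 6. Horses 3 to 6 were lower than at baseline. The shared array was below the baseline value of horse 1, 4.36, and above that of horse 2, 2.89, so the groups overlapped. The change at day 7 was -0.56 ± 0.22 (SE, adjusted p = 0.0715, 95% interval -1.04 to -0.09), which did not pass the test over all probe sets, after -0.22 ± 0.21 (adjusted p = 0.589) at 24 h. EPYC, which encodes epiphycan, a small proteoglycan of epiphyseal cartilage, had 3.62 to 4.67 (median 4.14) at baseline. At 24 h horse 3 stood apart at 5.0 while the other 5 horses lay between 3.28 and 3.81. By day 7 EPYC was at 4.10, 3.31, 2.91, 3.30 and 3.52, lower than baseline in 5 of 5 arrays, with the shared array still inside the baseline range. Its change was -0.64 ± 0.28 (adjusted p = 0.0954, 95% interval -1.24 to -0.04) at day 7 and -0.31 ± 0.26 (adjusted p = 0.542) at 24 h.

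CHAD encodes chondroadherin, which binds collagen and the integrins of chondrocytes. It read 5.55, 5.20, 5.75, 4.69, 5.34 and 4.05 in horses 1 to 6 at baseline. At 24 h the same horses had 5.18, 4.19, 5.55, 5.02, 4.95 and 4.77. On day 7 it was at 5.38 on the shared array, at 4.20, 4.24 and 4.14 in horses 3 to 5, and at 5.70 in horse 6. Horse 6 thus went from the lowest baseline value to the highest day 7 value, while horses 3 and 5 fell by 1.55 and 1.20 on the log2 scale. This gave CHAD the widest interval of the 10 genes, with a change of -0.34 ± 0.37 (SE, adjusted p = 0.495, 95% interval -1.14 to 0.47) at day 7 and -0.15 ± 0.35 (adjusted p = 0.845) at 24 h.

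SOX9 was the only 1 of the 10 genes that was called in any of the 3 comparisons. Before the injection it read 4.25 in horse 1, 3.44 in horse 2, 3.37 in horse 3, 3.22 in horse 4, 5.04 in horse 5 and 4.30 in horse 6. At 24 h the values were 3.11, 2.95, 3.68, 2.82, 3.66 and 3.22, lower in 5 of 6 horses and higher in horse 3. At day 7 they were 3.33 on the shared array and 2.84, 2.99, 2.84 and 3.22 in horses 3 to 6, lower in 5 of 5. The baseline split into 3 horses above the array median and 3 below it, whereas all 11 later arrays were below it. SOX9 fell by 0.90 on the log2 scale at day 7 (SE 0.28, adjusted p = 0.0318, 95% interval -1.51 to -0.30), to 0.534 times its baseline value. At 24 h the change was -0.70 ± 0.27 (SE, adjusted p = 0.172), and between 24 h and day 7 it was -0.21 ± 0.28 (adjusted p = 0.712). Groups overlapped at day 7, with horse 4 at 3.22 at baseline and the shared array at 3.33 later.

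The direction of SOX9 at day 7 held in all 19 alternative settings that gave it a value, and the call in 9 of them. With horse 1, 3, 4, 5 or 6 left out it was not called, with changes from -1.06 to -0.61 and adjusted p from 0.0507 to 0.149, and without the baseline array of horse 5 the change was -0.69 (adjusted p = 0.0825). After median centring it was -0.75 (adjusted p = 0.0598) and after quantile normalization -0.68 (adjusted p = 0.149), so neither passed. With array spread as a covariate it was -0.44 (adjusted p = 0.936), in a fit that called no probe set. Fewer cells that express a gene and less of its RNA per cell cannot be told apart in such samples, for SOX9 as for every other gene here. Of the 16 genes of distant tissues, PRM2, NEUROD6 and PDX1 were also called lower at day 7, with changes of -1.17, -1.01 and -0.87, and the rest were not called. Their calls held in 18 of 19, 17 of 19 and 14 of 20 alternative settings. Whether the SOX9 probe set read SOX9 RNA at these levels was not tested.

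**Figure D2:**
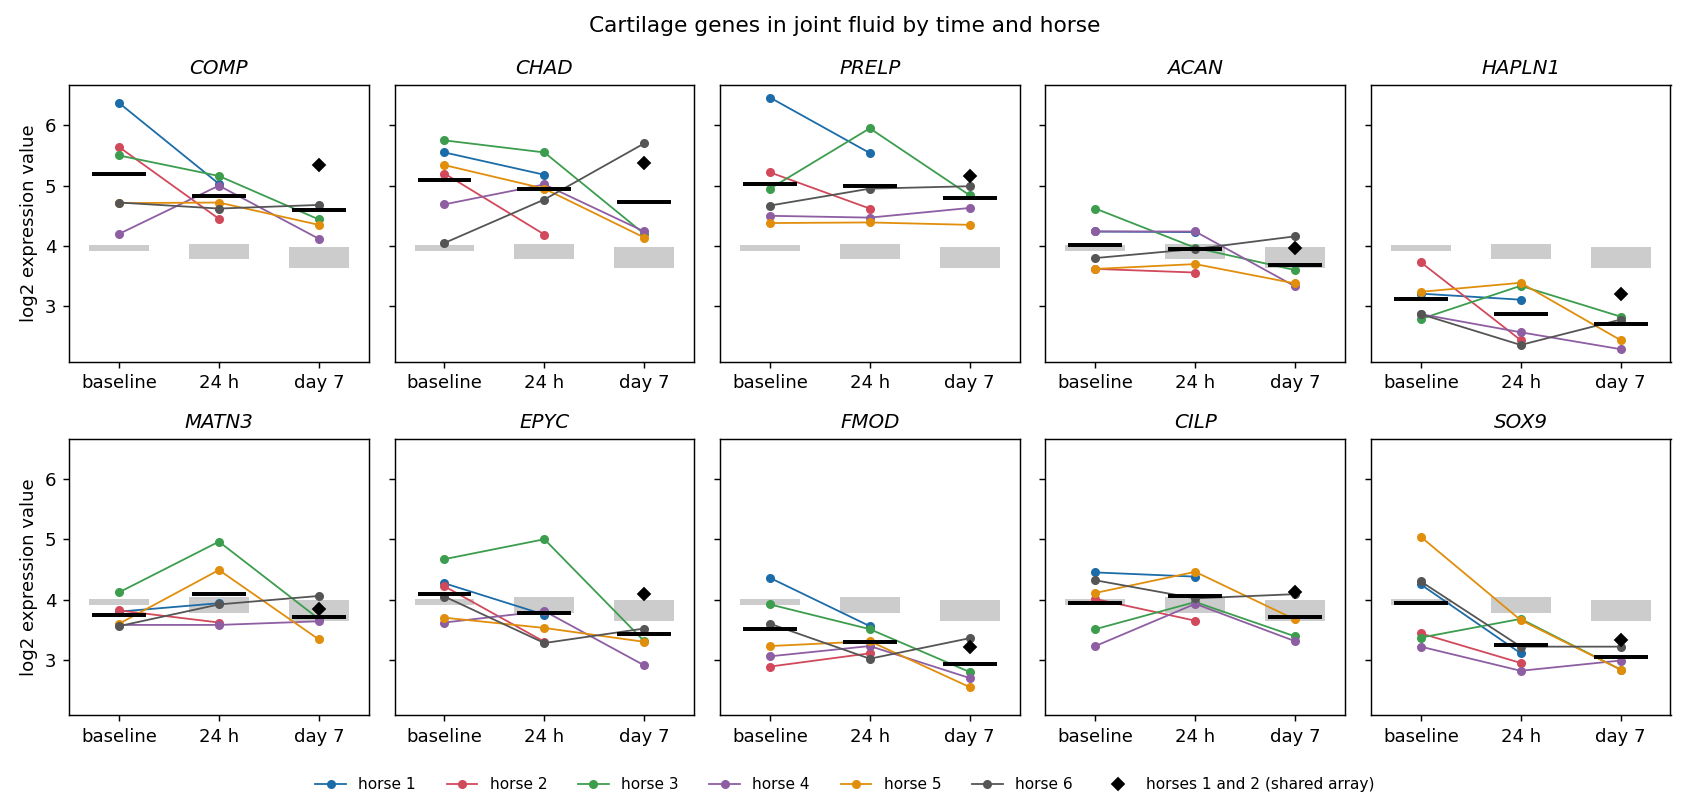
Log2 expression value of each of the 10 genes at baseline, 24 h and day 7, with 1 coloured line per horse, a black diamond for the day 7 array shared by horses 1 and 2, black bars for the mean over arrays and grey bands for the range of array medians. COMP, CHAD and PRELP lie above the grey bands and HAPLN1 below them, and SOX9 lies below them on all 24 h and day 7 arrays.

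Set against all probe sets, the list of 10 did not stand out. For 24 h against baseline 0 of 10 were called, where 1.01% of all 30559 probe sets were, and limma gave 1 of 10 (SOX9) an unadjusted p under 0.05, against 19.9% of all probe sets. The estimates were below 0 for 8 of 10, and for 55.7% of all probe sets, with a median of -0.19 against -0.06 over all probe sets. Horses differed, with 9 of 10 genes lower in horses 1 and 2 and medians there of -0.445 and -0.545. The medians of horses 3, 4 and 5 were 0.32, 0.085 and 0.045, and that of horse 6 was -0.2. For day 7 against baseline 1 of 10 was called, where 27.3% of all probe sets were, and it was lower, as were 15.4% of all. In that comparison 3 of 10 had an unadjusted p under 0.05 (SOX9, FMOD and EPYC) against 43.6% of all probe sets. All 10 estimates were below 0 at day 7, as were 62.6% of all, with a median of -0.36 against -0.24, but after median centring MATN3 and after quantile normalization MATN3 and HAPLN1 were above 0.

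Between 24 h and day 7, 0 of 10 were called, and limma called 0% of all probe sets. At an unadjusted p under 0.05 there were 0 of 10 and 13.2% of all. The 10 estimates were all below 0, as were 64.4% of all, from -0.39 for MATN3 to -0.11 for PRELP. Their median was -0.23 against -0.15 over all probe sets, and HAPLN1 was above 0 after quantile normalization. The arrays were split, with 9 of 10 genes higher on the shared array and 9 of 10 in horse 6. In horses 3, 4 and 5, 10, 7 and 10 of the 10 genes were lower. The values of the 2 times overlapped for 10 of 10 genes in each of the 3 comparisons, where they did not overlap for 1.22% of all probe sets at 24 h, 11.7% at day 7 and 0.936% between 24 h and day 7. The comparisons share arrays, so their estimates for a gene are not independent.

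**Figure D3:**
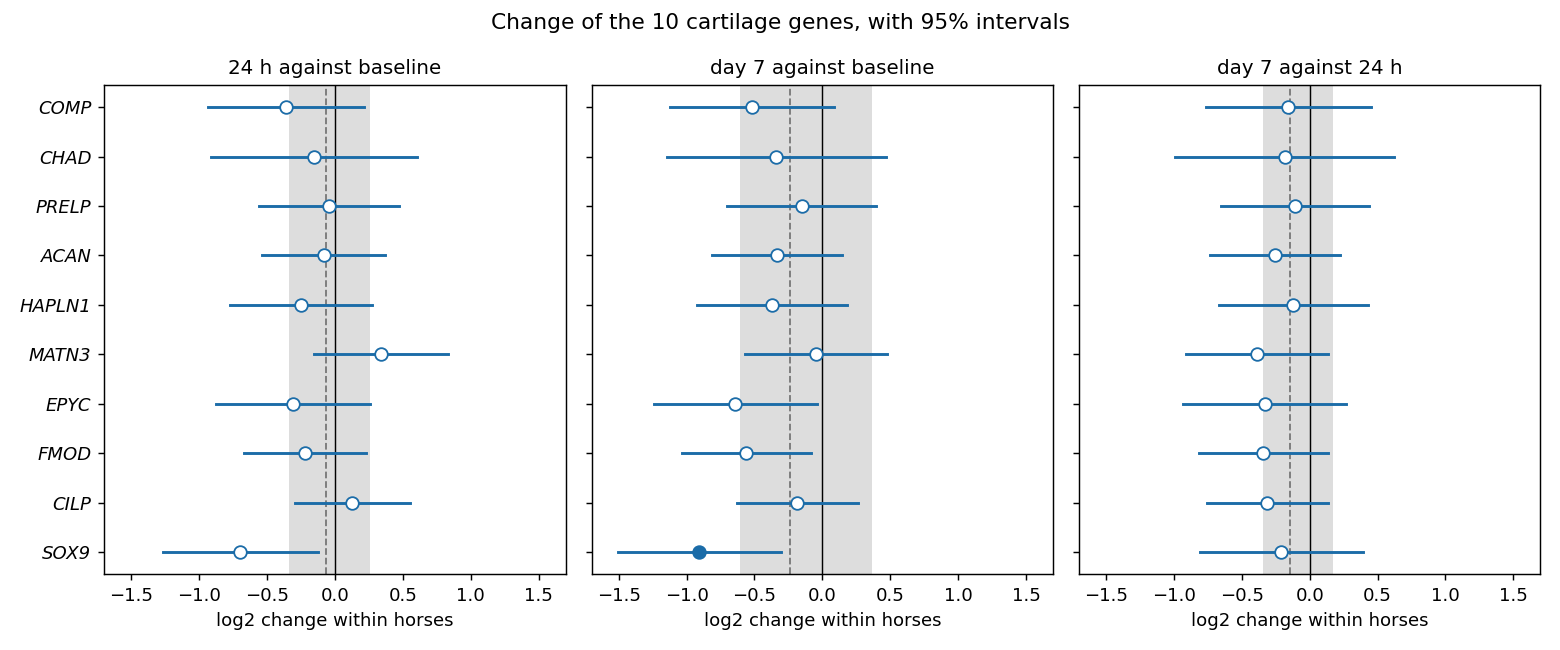
Log2 change within horses of each of the 10 genes in the 3 comparisons, with 95% intervals; a filled point was called, the grey band is the range between the quartiles of all 30559 probe sets and the dashed line is their median. SOX9 at day 7 is the only filled point, at -0.90, and the other estimates at day 7 lie between -0.64 and -0.05.

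Changes at day 7 differed with the brightness of the probe sets. When all probe sets were ordered by their mean and cut into 4 classes of equal size, the dimmest class had a median change of -0.62 at day 7 and 34.7% of it was called lower, while the brightest had a median of 0.51 and 31.5% called higher. HAPLN1 was in the dimmest class, COMP, CHAD and PRELP in the brightest and the other 6 genes in the next to dimmest. In that class, which holds SOX9, FMOD and EPYC, the median change was -0.30 and 12.2% were called lower. COMP, CHAD and PRELP had estimates of -0.52, -0.34 and -0.15, below the median of their own class. Their means over all arrays, 4.91, 4.96 and 4.96, were near the lower end of that class, which ran from 4.87 to 13.41. The class next below it had a median change of -0.04 at day 7. The 16 genes of distant tissues had a median change of -0.39 at day 7, with 16 of 16 estimates below 0 and 3 called lower (PRM2, PDX1 and NEUROD6), beside -0.36, 10 of 10 and 1 called for the cartilage genes. With array spread as a covariate limma called 0 of all 30559 probe sets at day 7, CD163 and the other macrophage markers included, so the 0 of 10 called there says nothing about the cartilage genes. Their median change in that fit was 0.03, against 0.004 over all probe sets.

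Levels within day 7 moved with the arrays as well. The 3 arrays with the highest spread, those of horses 3, 4 and 5 with SDs of 1.705, 1.82 and 1.805, had the lowest mean level of the 10 genes, at -0.21, -0.22 and -0.24 relative to the array median. On these same arrays the genes of distant tissues averaged -0.25, -0.31 and -0.31. The shared array and that of horse 6, with SDs of 1.53 and 1.66, had the 10 genes at 0.18 and 0.14 and the genes of distant tissues at 0.13 and -0.13. The part of array spread in the changes was not tested beyond the fit with it as a covariate.

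At baseline horse 1 stood above the others. It held the highest value for COMP, PRELP, FMOD and CILP, and the mean level of the 10 genes was 0.77 above the array median there, against -0.19 to 0.31 in horses 2 to 6. Markers of synovial fibroblasts averaged 1.22 above the array median on the same array, against 0.10 to 0.42 in the other 5 horses. The genes of distant tissues were also highest there, at 0.32 against -0.03 to 0.27. Chondrocyte markers averaged 0.38 on that array, below the 0.40 of horse 3. Whether these levels are linked was not tested. In horse 1 the mean of the 10 genes was down to 0.16 at 24 h and the fibroblast markers to 0.41. COL2A1, by contrast, was lowest in horse 1 at baseline, at 3.86 against 4.24 to 4.98. Horse 3 held the highest baseline value of ACAN, MATN3, CHAD and EPYC, and its fibroblast markers averaged 0.22. Without the baseline array of horse 1 the change of COMP at day 7 was -0.38 in place of -0.52, that of FMOD -0.48 in place of -0.56 and that of PRELP -0.01 in place of -0.15, while SOX9 was still called (-0.86, adjusted p = 0.0413).

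Marker genes of other cells of the fluid changed on the same arrays. These are levels of RNA and not counts of cells. Of 13 measured macrophage markers 9 rose at day 7 and 0 fell, where 11.9% of all probe sets were called higher. Macrophage markers had a median change of 2.07. Their mean level per array went from 0.97 to 1.93 at baseline to 2.45 to 4.50 at day 7, relative to the array median. Of 14 fibroblast markers 0 rose and 1 fell, CLIC5, with a median of -0.34. Neutrophil markers had 1 of 8 lower at day 7 (CXCR2) and T cell markers 3 of 13 lower (CD6, LCK and ZAP70), beside the 15.4% of all probe sets called lower. The part of these other cells in the levels of the cartilage genes was not tested.

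Cartilage-related genes outside the 10 were described through 6 lists with 74 names, of which 68 were measured. At 24 h 1 of 68 rose and 0 fell, with 0.543% of all probe sets called higher. At day 7 7 rose and 12 fell, where 11.9% of all probe sets were called higher and 15.4% lower, and the median of the 68 was -0.40 against -0.24 over all probe sets. The counts of each list below are given beside these shares, and those of estimates below 0 beside the 62.6% of all probe sets. These shares are not matched for brightness. As given above, 34.7% of the dimmest class was called lower at day 7 and 31.5% of the brightest higher. A count above the share of all probe sets thus does not show that a list stood out from probe sets of like brightness, which was not tested. Median centring gave 8 higher and 7 lower and quantile normalization 2 and 5. Between 24 h and day 7 limma called 0 of 68.

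Among the hyalectans and link proteins, 1 of 6 rose and 2 fell at day 7. VCAN, which encodes versican, the large proteoglycan of loose tissue that macrophages and fibroblasts also make, went from a mean of 5.78 ± 0.91 (SD, n = 6) at baseline to 7.72 ± 1.15 (n = 6) at 24 h and 7.87 ± 0.67 (n = 5) at day 7. At baseline it ranged from 4.95 in horse 1 to 7.45 in horse 4, and at day 7 it was at 6.73 on the shared array and between 7.90 and 8.35 in horses 3 to 6. Unlike aggrecan, its close relative in structure, VCAN thus rose at both times, by 1.94 ± 0.39 (log2 change, SE, adjusted p = 0.0397) and 1.94 ± 0.41 (adjusted p = 0.00928), although the difference between the 2 genes was not tested. The call at 24 h was lost in 11 of 20 alternative settings and the call at day 7 in 1 of 20, the fit with array spread as a covariate. HAPLN4 and HAPLN2, link proteins of the nervous system, fell by 1.18 and 0.59 at day 7 (adjusted p = 0.0174 and 0.0454), and these calls were lost in 4 of 19 and 14 of 20 settings, quantile normalization among them for both.

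The cartilage collagens had 0 of 8 higher and 2 lower at day 7, where 15.4% of all probe sets were called lower. All 8 estimates were below 0, as were 62.6% of all. COL9A2, a chain of the collagen that decorates cartilage fibrils, read 5.63 to 6.39 at baseline and 5.58, 5.11, 4.72, 4.76 and 5.51 at day 7, with no overlap between the 2 times. It fell by 0.87 (SE 0.24, adjusted p = 0.0205), a call lost in 5 of 20 settings. COL27A1, a fibrillar collagen of growing cartilage, fell by 0.85 (adjusted p = 0.0327), a call lost in 7 of 20 settings with a change of sign in 1. COL2A1 had a change of -0.07 ± 0.26 (adjusted p = 0.911) at 24 h and of -0.47 ± 0.27 (adjusted p = 0.193) at day 7, and 4.37, 3.90, 3.94, 3.70 and 4.53 were its day 7 values. At 24 h the smallest adjusted p of the list belonged to COL9A2 (change -0.55, adjusted p = 0.193) and COL27A1 (-0.47, adjusted p = 0.324).

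Of the 12 other small leucine-rich proteoglycans and related proteins, relatives of PRELP, FMOD, EPYC and CHAD, 3 fell at day 7 and 0 rose. These were OGN (-0.90, adjusted p = 0.0231), ASPN (-0.61, adjusted p = 0.0366) and OMD (-0.59, adjusted p = 0.0425), which encode osteoglycin, asporin and osteomodulin. None of the 3 was called after median centring or quantile normalization. The 2 with the smallest p at 24 h were OGN (-0.65, adjusted p = 0.16) and ASPN (-0.46, adjusted p = 0.19). Of 18 matrilins, thrombospondins and other glycoproteins 4 fell at day 7. CILP2, the paralogue of CILP, fell by 0.88 (SE 0.19, adjusted p = 0.0108), from 4.87 to 5.64 at baseline to 4.74, 4.38, 4.11, 3.97 and 4.71, with no overlap. CILP itself had a change of -0.19 in that comparison.

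The other falls of that list were those of MIA, a secreted cartilage protein (-0.80, adjusted p = 0.018), UCMA, a protein of juvenile cartilage (-0.72, adjusted p = 0.0255), and THBS4, a thrombospondin related to COMP (-1.59, adjusted p = 0.047). THBS4 read 9.42 in horse 1 at baseline against 4.8 to 6.38 in the other 5 horses, and its call was lost in 11 of 20 settings. The call of UCMA was lost in 8 of 19 settings and that of MIA in 3 of 19, quantile normalization among them for both. At 24 h the smallest p belonged to MIA (-0.67, adjusted p = 0.0966) and UCMA (-0.55, adjusted p = 0.153).

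The list of chondrocyte transcription factors, which also holds the ubiquitin ligase WWP2, had 1 of 9 higher and 1 lower at day 7. NKX3-2, a repressor that acts together with SOX9 in developing cartilage, read 3.24 to 4.06 at baseline and 2.16, 2.16, 2.53, 2.65 and 2.97 at day 7. It fell by 1.10 (SE 0.26, adjusted p = 0.013) with no overlap, though not called after quantile normalization. MEF2C, which promotes hypertrophy in cartilage and is also active in lymphocytes and macrophages, rose by 1.71 (SE 0.53, adjusted p = 0.0326), from 6.29 ± 0.97 (SD, n = 6) to 7.99 ± 0.87 (n = 5). Its call was lost in 6 of 20 settings, quantile normalization among them, with a change of sign in 1. SOX5 and SOX6, the partners of SOX9, were not called in any of the 3 comparisons. At 24 h the smallest p were those of WWP2 (0.59, adjusted p = 0.182) and GLI3 (-0.80, adjusted p = 0.279).

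Of the genes that build the sulphated chains of proteoglycans 5 of 15 rose and 0 fell at day 7, where 11.9% of all probe sets were called higher. The median change was 0.27, and 6 of 15 estimates were below 0. SLC26A2, the sulphate transporter of chondrocytes and other cells, rose by 1.43 (SE 0.38, adjusted p = 0.019). PAPSS1, which makes the sulphate donor, rose by 1.42 (adjusted p = 0.0231), CHST11, a chondroitin sulphotransferase, by 1.19 (adjusted p = 0.0306), and CHSY1, a chondroitin synthase, by 1.16 (adjusted p = 0.0372). The fifth was CHST12. Of these 5, only SLC26A2 was called after quantile normalization, and each call was lost in 4 (SLC26A2) to 14 (CHST12) of 20 settings. The sign changed in 1 setting each for SLC26A2, PAPSS1, CHST11 and CHSY1. These enzymes work in many cell types, and macrophage markers rose on the same arrays, as given above. The part of macrophages in these rises was not tested. At 24 h CHST11 (1.33, adjusted p = 0.0713) and CHST15 (1.17, adjusted p = 0.105) had the smallest p.

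**Figure D4:**
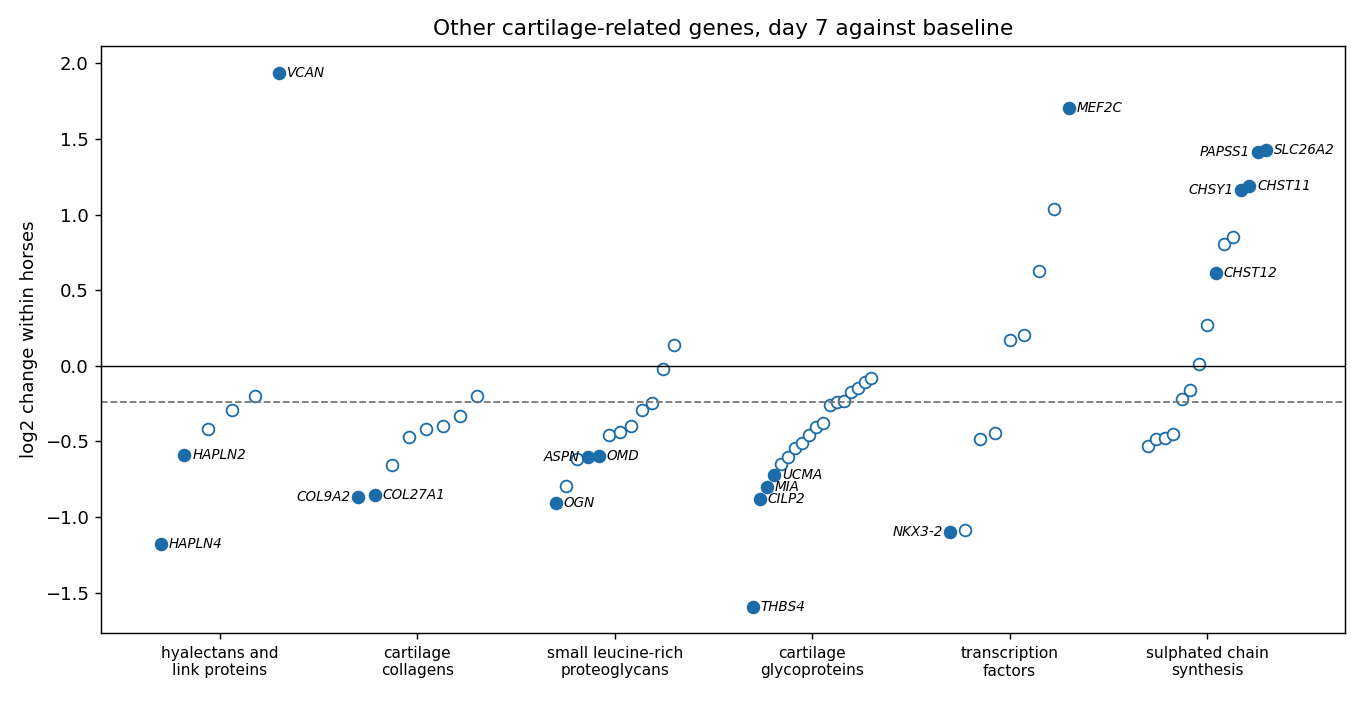
Log2 change at day 7 against baseline of the 68 other cartilage-related genes in 6 lists, 1 point per gene ordered within its list; filled and named points were called, and the dashed line is the median of all probe sets, -0.24. The 8 collagens and 18 glycoproteins all lie below 0, VCAN and MEF2C are the highest points of their lists, and 5 genes of sulphated chain synthesis are called higher.

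Between 24 h and day 7 the genes of these lists with the smallest p were HAPLN4 (-0.69) and BCAN (-0.28), COL9A3 (-0.56) and COL9A1 (-0.51), PODN (-0.45) and CHADL (-0.44), THBS1 (-0.69) and CILP2 (-0.45), NKX3-2 (-1.01) and MEF2C (1.56), and SLC26A2 (0.88) and PAPSS1 (0.87). Their adjusted p ran from 0.224 to 0.564, so none passed. PODN alone among these 12 had values at the 2 times that did not overlap.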

How the data were processed

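Total RNA of joint fluid was hybridised to an Affymetrix equine array, 1 array per horse and time, in 6 horses. Each probe set has 1 log2 value per array as deposited, from 1.05 to 13.68. Per the submitters' processing notes, Transcriptome Analysis Console 3.0, Affymetrix Expression Console and RMA were used, with no role or order given, and the arrays do not share 1 distribution. Per the labels' protocols RNA had an integrity number of at least 8. Genes were named from the platform's annotation: 16789 probe sets carry 1 symbol, 343 several and 13427 none. limma 3.58.1 in R 4.3.3 was fitted to all 30559 probe sets and 17 arrays (two-sided tests; degrees of freedom were 9 residual and 4.71 prior), with the horse named in the titles as a fixed block, the shared day 7 array counting 0.5 for each of horses 1 and 2. Residuals of the same horse at different times correlated with a median of -0.02 over 18 pairs, and those of different horses with 0 over 78 pairs; the pairing comes from the titles. The fit was tested on simulated data. The 10 genes, the other lists and the alternatives were chosen with earlier results of these data known. Text names all 10 genes, COL2A1, and per list and comparison up to 4 called genes with the smallest p, or the 2 with the smallest p where none was called. Python 3.11.15 with matplotlib 3.10.9 drew the figures. Tried as alternatives were median centring, quantile normalization, a filter on dim probe sets, the shared array left out, no block or a random block for the horse, array spread as a covariate and each horse left out; leaving out the baseline array of horse 1 or of horse 5 was chosen after seeing the data. The labels do not say whether repeat extractions were made. The p-values of the main fit thus rest on the spread between these arrays that remained after horse and time were fitted, as moderated by limma.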

Additional observations from a re-analysis of the deposited data

Results flagged for a closer look

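EPYC in horse 3 at 24 h read 5.0, while the next highest of the 6 arrays read 3.81. The gap was 0.692 of the range of the group, above Dixon's critical value for 6 values, so this array lay far from the others. This was 1 of 33 groups of 5 or 6 arrays looked at for the 10 genes and COL2A1, and chance alone flags about 5% of such groups. The same array held the highest 24 h value of COMP, SOX9, MATN3, CHAD and PRELP. It also had the highest array median at 24 h, 4.04. The genes of distant tissues were highest there too, at 0.24 relative to the array median, against -0.26 to 0.06 on the other 24 h arrays.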

How the results depend on the processing

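Members called were 0 at 24 h and 0 between 24 h and day 7 in all 21 alternatives, among them the fit with no replicate block, which gave 0, 1 and 0 for the 3 comparisons, as did the paired fit. At day 7 the 1 call became 2 without the shared array, and 0 after median centring, after quantile normalization, on the arrays of the 2 times alone, with the filter on dim probe sets (3 of 10 genes tested, SOX9 not among them), with an unadjusted p and a 2-fold change, with array spread as a covariate and, chosen after seeing the data, without the baseline array of horse 5. With each horse left out the count was 0 to 2. The second call was EPYC without the shared array (-0.85, adjusted p = 0.0415) and FMOD without horse 2 (-0.71, adjusted p = 0.0366). Most changes of the 10 genes and COL2A1 kept their sign. Those that did not, none of them called, were for 24 h PRELP after median centring (0.0017), with the baseline array of horse 1 left out (0.13) and with horse 2 lacking its 24 h array (0.0462), where CHAD (0.0483) and COL2A1 (0.12) turned too. With array spread as a covariate they were ACAN (0.0173), HAPLN1 (0.21), CHAD (0.17), EPYC (0.22) and COL2A1 (0.46) at 24 h, MATN3 (0.37), HAPLN1 (0.43), CHAD (0.22), EPYC (0.27), CILP (0.36) and COL2A1 (0.44) at day 7, and HAPLN1 (0.21), CHAD (0.0484) and EPYC (0.0499) between 24 h and day 7. At day 7 MATN3 turned after median centring (0.10) and quantile normalization (0.16), as did HAPLN1 after quantile normalization at day 7 (0.0515) and between 24 h and day 7 (0.0826). With each horse left out, the change at 24 h ran from -0.25 to 0.13 for PRELP, from -0.33 to 0.018 for CHAD, from -0.25 to 0.10 for COL2A1 and from -0.13 to 0.032 for ACAN. At day 7 it ran from -0.18 to 0.0545 for MATN3 and from -0.26 to 0.05 for PRELP, and between 24 h and day 7 from -0.25 to 0.0681 for HAPLN1, from -0.47 to 0.0934 for CHAD and from -0.27 to 0.11 for PRELP. The cause of these turns was not tested. Probe sets called ran from 1 to 1587 at 24 h (310 in the main setting), 0 to 10934 at day 7 (8343) and 0 to 1624 between 24 h and day 7 (0); genes of the 6 lists from 0 to 3 (1), 0 to 25 (19) and 0 to 2 (0). The share of calls that were higher went from 53.5% to 64.6% after median centring and 65.7% after quantile normalization at 24 h, and from 43.7% to 60.2% and 56.4% at day 7. The median of all probe sets at day 7 was -0.24 as deposited, -0.09 after median centring and -0.06 after quantile normalization.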
